A study of Mus musculus with 40 samples.

Results

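RNA from mouse aorta pretreated with cyclosporin A (CsA) was compared after 2 h of angiotensin-II (Ang-II) and without Ang-II, across all protein-coding genes. The libraries were taken by their labels, 3 after Ang-II and 3 without it, which is 6 of the 40 samples of the series. CsA is an immunosuppressant that, bound to cyclophilin, blocks the phosphatase calcineurin (Cn) and so keeps NFAT transcription factors phosphorylated and out of the nucleus. Ang-II is a vasoconstrictor peptide that acts on smooth muscle of the arterial wall through a receptor coupled to G proteins, raises blood pressure, and within hours induces immediate early genes such as the Fos and Egr families. Heat shock proteins are chaperones induced by many kinds of stress, and interferon-induced genes encode defense GTPases and the machinery of antigen presentation. The comparison asks which aortic transcripts Ang-II still moved when the phosphatase activity of Cn was blocked.

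All mice were WT C57BL/6J males aged 10 to 12 weeks. CsA was delivered by osmotic minipump at 5 mg/kg per day for 5 days, and mice in which NFAT dephosphorylation in the thymus was not inhibited were removed. The CsA basal group received CsA and no Ang-II, and the CsA Ang-II 2h group received CsA and then a second pump with Ang-II at 1 µg/kg/min for 2 h. Only Ang-II-treated mice with a systolic blood pressure over 130 mmHg were kept. A CsA Ang-II 24h group and the WT basal and WT Ang-II 2h groups, which carried no CsA pump, are used for comparison. Each library is a pool of 3 aortas from which the adventitia and perivascular tissue had been pulled off, and every group has 3 libraries. Controls had the same surgery without a pump, but its timing in the CsA basal group is not stated, so that an effect of recent anesthesia and surgery and one of Ang-II cannot be told apart.

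The 6 libraries held 21 M to 26.65 M assigned reads. Signal is the deposited scaled value, close to counts per 1 M reads, and fold changes are differences of log2(signal + 0.5) given with their standard error (SE), a scale that understates changes of low genes. Adjusted p-values come from limma with Benjamini-Hochberg adjustment over the 13738 genes tested. They measure the spread between libraries, since each library pools animals, and a single gene in 3 against 3 libraries could not reach an exact permutation p under 0.1.

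Libraries of both groups differed in the signal of marker genes of other tissues. CsA Ang-II 2h replicate 3 stood farthest from its group, with a root mean square deviation of 0.484 on the log2 scale against 0.271 to 0.335 in the other 5 libraries. Its 8 tested markers of Schwann cells and neurons summed to a signal of 551, against 39.8 to 225 in the others, and its 5 red blood cell markers summed to 1610, against 132 to 309. The 9 tested markers of skeletal and cardiac muscle summed to 1140, 2070, and 199 in the CsA basal libraries 1 to 3 and to 51.6, 51.0, and 110 after Ang-II. The 6 markers of mesothelium, the cell layer covering body cavities, summed to 57.5, 72.5, and 168 without Ang-II and to 2.5, 8.91, and 2.93 with it. Macrophage markers were lower after Ang-II as well, at 403, 343, and 407 against 219, 195, and 195. In a bulk sample, fewer cells of a type and less RNA per cell cannot be told apart. The smooth muscle markers identified the tissue, since their sums of 17600 to 19700 without Ang-II and 21200 to 27400 with it were above those of every other marker list.

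After 2 h of Ang-II, 2767 of 13738 genes (20.1%) were differentially expressed genes (DEGs) at an adjusted p under 0.05. Of these, 1690 were higher (12.3%) and 1077 lower (7.84%). Past a fold change of 2, 263 were higher (1.91%) and 278 lower (2.02%). All 3 treated libraries lay above all 3 basal ones in 2741 genes (20%) and below them in 2322 (16.9%). The median log2 fold change over all genes was -0.02. The 2 sets of larger changes differed in level. The 263 higher DEGs had a median signal of 32.6 in CsA basal and 86.4 in CsA Ang-II 2h, whereas the 278 lower DEGs went from 10.1 to 2.37. In WT basal aortas, the median of these 278 genes was 3.34. Leaving out 1 library moved the counts most for CsA Ang-II 2h replicate 2, to 920 higher and 523 lower, and without CsA basal replicate 1, 2, or 3 the lower DEGs numbered 756, 685, and 654. Without CsA basal replicates 1 and 2 together, which leaves that group 1 library whose spread is taken from the other groups, 653 were higher and 251 lower, and 145 of the latter lay past a fold change of 2.

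**Figure D1:**
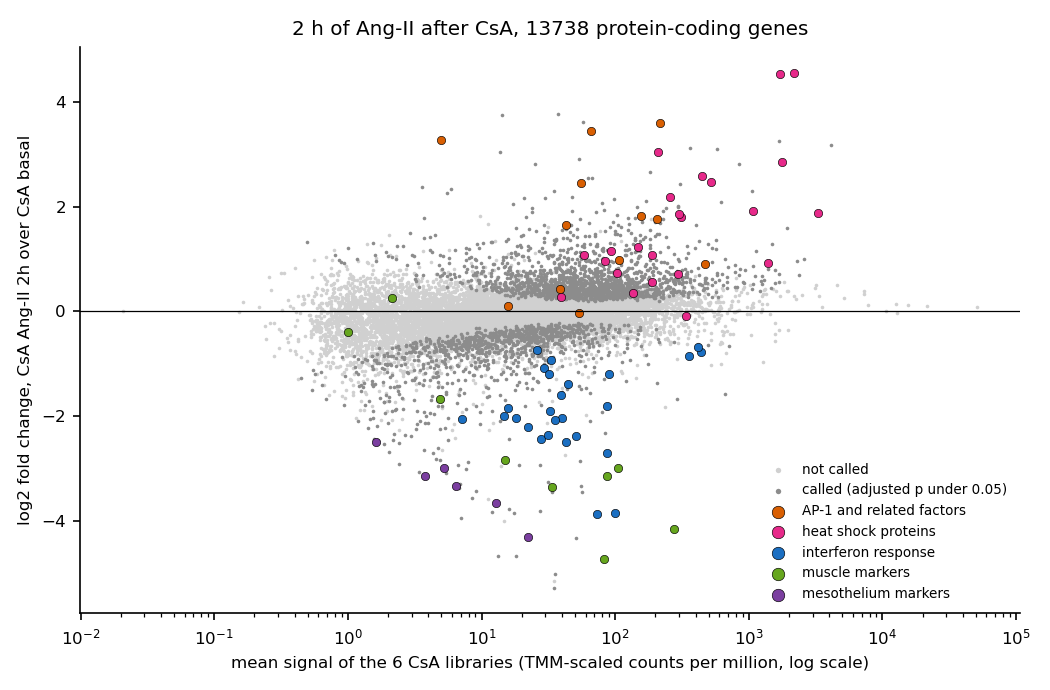
Log2 fold change (CsA Ang-II 2h minus CsA basal, y axis) against mean signal of the 6 CsA libraries (log scale, x axis) for the 13738 genes tested, in darker grey where the adjusted p was under 0.05. Colored points mark the AP-1 and heat shock lists, which lie mostly above 0, the interferon list and the mesothelium markers, which lie below it, and the muscle markers, all but 1 of which lie below it.

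Heat shock proteins and their cochaperones rose most uniformly. Of 23 members, 21 were higher and 0 lower, with a median log2 fold change of 1.23, and the 2 not called were the regulator Hsf1 (0.27) and the mitochondrial chaperone Hspa9 (-0.09). Hspa1b, an inducible HSP70, read 277, 143, and 122 in CsA basal and 2830, 6070, and 3640 in CsA Ang-II 2h. The groups lay far apart, with a log2 fold change of 4.55 ± 0.45 (adjusted p = 1.3e-05), or 23.4-fold. Its neighbor Hspa1a rose by 4.52 ± 0.46, but the 2 genes are nearly identical and share reads, so that neither value is certain on its own. The same holds for Gm20481 (3.74 ± 0.45), which overlaps Hspa1a on the opposite strand, since the sources used here do not state that counting used strand.

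Cochaperones and small heat shock proteins rose with them. Dnajb1, the HSP40 partner of HSP70, read 58.3, 42.3, and 33 without Ang-II and 258, 442, and 416 with it (log2 fold change 3.05 ± 0.25, adjusted p = 4.4e-06). Hspb1, a small heat shock protein that binds actin, read 394, 548, and 353, then 2600, 3790, and 2940 (2.86 ± 0.23, adjusted p = 3.7e-06). Hsph1, a nucleotide exchange factor of HSP70, went from 169, 120, and 92.8 to 598, 1010, and 678 (2.58 ± 0.24, adjusted p = 8.5e-06). In none of these did a library of one group reach the other. Bag3 (2.18), Hsp90aa1 (1.92), Cryab (1.86), and Stip1 (1.23), which serve protein quality control, the HSP90 cycle, or both, also rose. Hspa8, the constitutive HSC70, was among the most abundant DEGs, from 1510, 1440, and 1270 to 4200, 6440, and 5020 (1.87 ± 0.22, adjusted p = 6.1e-05).

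A heat shock element, taken as 3 inverted GAA units spaced by 2 free bases and searched on both strands from 250 bases before to 50 after the RefSeq start site, lay in 0.385% of the 10656 promoters matched to a tested gene. It lay in 3 of 17 matched promoters of the heat shock list (17.6%) and in 2 of 35 of the 50 largest rises (5.71%). The stretch of Hspe1, the HSP10 cochaperonin (log2 fold change 0.95), and that of Vwce (2.26), a rise outside the list, are given as examples from RefSeq on GRCm38.p6. Capitals mark the bases covered by matches. Hspe1 has 2 of them at chr1:55088034-55088101 on the plus strand, the first at -89 from its start, and Vwce has 1 at chr19:10634066-10634128 on the plus strand, at -142.
Hspe1: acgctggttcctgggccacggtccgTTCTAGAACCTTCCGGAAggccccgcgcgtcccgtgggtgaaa
Vwce: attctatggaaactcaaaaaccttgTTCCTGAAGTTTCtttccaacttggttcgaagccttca
A match describes these letters only. A CRE (TGACGTCA) and a CArG box were in 0 of the 35 promoters of the largest rises, against 3.17% and 1.36% of all, an AP-1 site (TGANTCA) was in 5.71% against 5.1%, and a kappaB site in 14.3% against 5.14%.

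Immediate early transcription factors rose next. Among AP-1 and related bZIP factors, 9 of 12 were higher and 0 lower (median 1.71), and among Egr, Nr4a, and other immediate early genes 14 of 18 were higher and 0 lower (median 1.45). Atf3, a stress-induced bZIP factor, read 43.1, 33.8, and 22.3 in CsA basal and 280, 425, and 504 in CsA Ang-II 2h (3.59 ± 0.44, adjusted p = 8.1e-05), or 12.1-fold. Fosb read 11.3, 9.92, and 7.3, then 53.9, 115, and 196 (3.44 ± 0.47, adjusted p = 0.0002). Fos, its founding relative, rose less evenly, from 30.7, 13.7, and 7.64 to 54, 66.6, and 160 (2.45 ± 0.53, adjusted p = 0.0048). In both genes replicate 3 was the highest library after Ang-II and the lowest without it. Fosl1 (3.26), Fosl2 (1.81), Jun (1.77), and Maff (1.65) rose too. Junb did not pass the test, with overlapping libraries at 36.5, 33.8, and 26.8 against 30.1, 46.1, and 58.1 (0.42, adjusted p = 0.24).

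Arc, an immediate early gene best known from neurons, went from 7.3, 3, and 3.6 to 36, 87.7, and 85.6 (3.76 ± 0.39, adjusted p = 1.8e-05). The nuclear receptor Nr4a3 read 22, 13.2, and 17, then 74.2, 164, and 86.9 (2.55 ± 0.25, adjusted p = 1.3e-05). The zinc finger factor Egr1 read 60.3, 48.9, and 42.4, then 92.6, 134, and 220 (1.47 ± 0.29, adjusted p = 0.0024). All 3 separated the groups completely. Nr4a1 (1.78), Egr2 (1.24), Egr3 (1.22), and Ier2 (0.51) also rose, but Egr2, Egr3, and Ier2 did not pass in every alternative fit. Ier3, an early response gene that limits apoptosis, read 20.5, 20.8, and 16.7 without Ang-II and 57.9, 74.6, and 92.7 with it (1.91 ± 0.25, adjusted p = 0.00012).

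**Figure D2:**
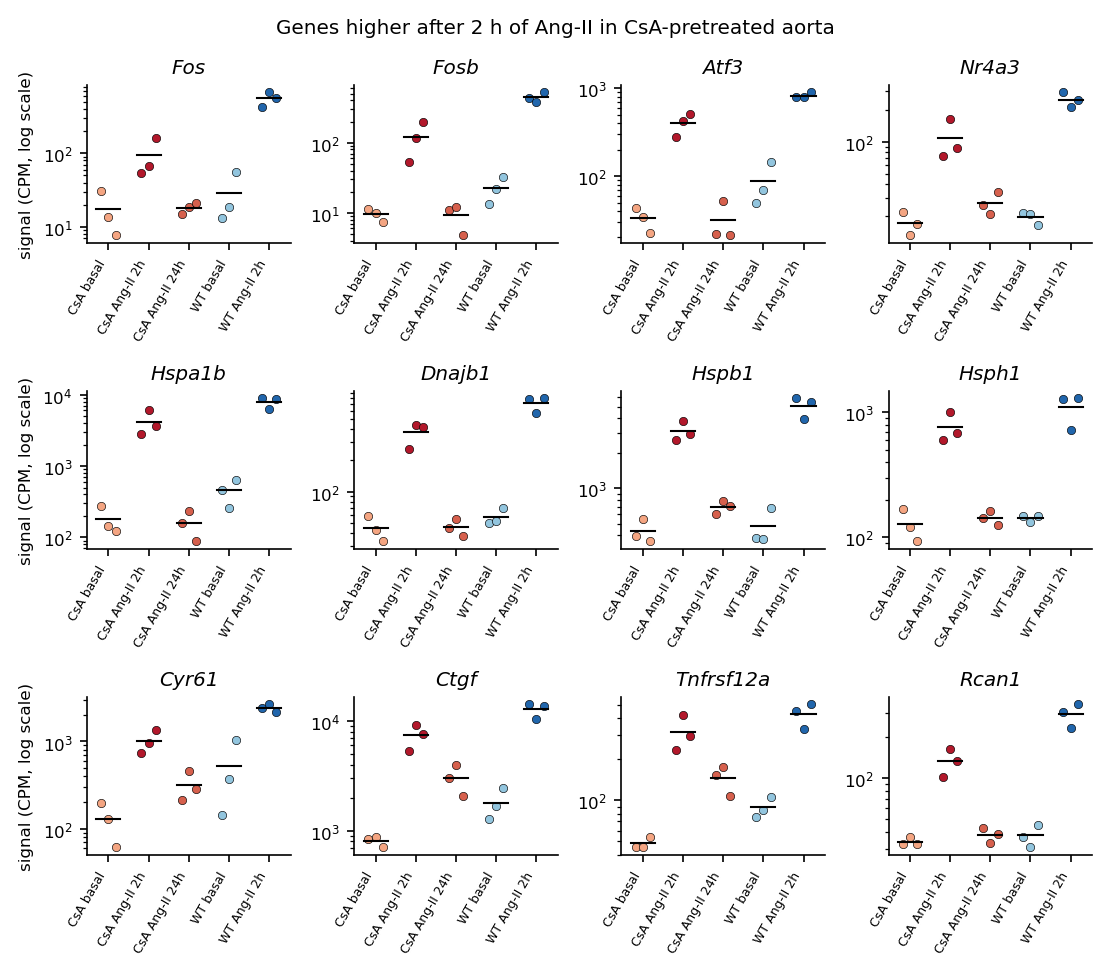
Signal (log scale, y axis) of 12 genes that rose, with 1 point per library and a bar at the group mean for CsA basal, CsA Ang-II 2h, CsA Ang-II 24h, WT basal, and WT Ang-II 2h. Every gene shown, among them Fosb, Hspa1b, Ctgf, and Rcan1, has its 3 CsA Ang-II 2h libraries above its 3 CsA basal libraries.

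Growth control followed the same direction. MAP kinase feedback genes were higher in 9 of 17 cases and lower in 0 (median 0.75). Errfi1, an inhibitor of the EGF receptor, read 119, 97.7, and 72, then 409, 617, and 532 (2.43 ± 0.19, adjusted p = 3.7e-06). The phosphatases Dusp1 (1.70), Dusp10 (1.53), and Dusp8 (1.46) and the Sprouty genes Spry4 (0.86) and Spry2 (0.77) rose, whereas Dusp6 (-0.13) and Spry1 (-0.21) did not pass. Of 16 EGF receptor ligands and growth factors, 5 were higher and 1 lower. Hbegf, the heparin-binding EGF, read 18.6, 22.9, and 14.1, then 69.7, 161, and 113 (2.54 ± 0.32, adjusted p = 9.9e-05). Gdf15 (2.37), Bdnf (2.16), and Ereg (1.33) rose, and the binding protein Igfbp5 fell by 0.63.

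Among Myc, polyamine, and ribosome biogenesis genes 9 of 16 were higher and 0 lower, led by Myc itself, from 6.8, 5.77, and 6.14 to 20.1, 32.5, and 31.5 (2.05 ± 0.33, adjusted p = 0.00058). Nucleolar factors on this list, such as Nop58 (0.77) and Ncl (0.53), moved less. Of 18 p53 targets and growth arrest genes 10 were higher and 1 lower, with Btg2 at 1.78 and Gadd45b at 1.57. Kruppel-like factors were higher in 5 of 13 cases, with Klf6 at 1.65 and Klf4 at 0.68, and lower in 0. Over all genes, 12.3% were higher and 7.84% lower.

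Matricellular and actin-associated genes were among the largest rises. Ctgf, a matricellular growth factor, was already abundant in CsA basal at 836, 879, and 703 and reached 5340, 9160, and 7610 (3.16 ± 0.31, adjusted p = 1.1e-05), or 8.96-fold. Its family member Cyr61 read 197, 129, and 60.8, then 736, 966, and 1360 (3.09 ± 0.57, adjusted p = 0.0018). Abra, an actin-binding protein of muscle, read 8.98, 11, and 5.52, then 85.6, 128, and 106 (3.61 ± 0.34, adjusted p = 9e-06). These 3 genes did not overlap between the groups. Xirp1, an actin-binding repeat protein, rose by 3.12 ± 0.28, and Tnfrsf12a, the receptor of the cytokine TWEAK, by 2.66 ± 0.27.

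Of 28 genes for the actin cytoskeleton and focal adhesions, 15 were higher and 0 lower (median 0.47). Flnc, the muscle filamin that crosslinks actin, read 193, 201, and 200, then 915, 2120, and 1410 (2.82 ± 0.32, adjusted p = 4e-05). Itga5, the fibronectin receptor subunit, read 304, 370, and 376, then 1310, 2360, and 1620 (2.30 ± 0.28, adjusted p = 6.9e-05). Changes of the adhesion proteins Vcl (0.94), Zyx (0.66), and Actn1 (0.60) were smaller, and Actn1 did not pass under quantile normalization (0.15, adjusted p = 0.36). The count was 14 without any 1 of the CsA basal libraries and 3 without replicates 1 and 2, a fit that leaves 1 basal library, where the median was 0.54. Of the 28 actin and focal adhesion genes, 15 were lower in CsA basal than in WT basal and 0 higher. Over all 13738 genes, 1560 were lower. That comparison shares its CsA basal libraries with the 2 h contrast. At 2 h of Ang-II in WT, 11 of the 28 were higher (median 0.39). Contractile genes of smooth muscle were higher in 4 of 20 cases and lower in 0 (median 0.28), against 12.3% and 7.84% of all genes. In CsA basal, 18 of these contractile genes were lower than in WT basal and 1 was higher. Their coactivator Myocd read 47.8, 29.7, and 35.2, then 83.3, 135, and 89.7 (1.43 ± 0.28, adjusted p = 0.0025), and Cnn1 rose by 0.68 ± 0.18. The abundant Acta2, at 5680, 6750, and 6480 against 7480, 9180, and 8120, was higher in all 3 treated libraries but did not pass (0.39 ± 0.27, adjusted p = 0.32), nor did Myh11 (0.26, adjusted p = 0.39).

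Matrix remodeling and matricellular genes were higher in 13 of 26 cases and lower in 2. Tnfaip6, a hyaluronan-binding protein, read 2.55, 3.08, and 1.98, then 18.2, 29.7, and 26.5 (3.05 ± 0.28, adjusted p = 8.3e-06). The protease Adamts1 (2.09), thrombospondin Thbs1 (1.92), the crosslinking enzyme Lox (1.76), and the urokinase receptor Plaur (1.05) rose. Prg4, a lubricating proteoglycan, fell by 1.68, from 28.7, 22.4, and 17.7 to 5.19, 8.66, and 6.6 (adjusted p = 0.0097).

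Collagens and elastic fiber genes were higher in 13 of 20 cases and lower in 1 (median 0.54). In CsA basal against WT basal, 14 of the 20 were lower and 1 higher (median difference -0.61). That comparison shares its CsA basal libraries with the 2 h contrast. At 2 h of Ang-II in WT, 1 of the 20 was higher and 0 lower (median 0.14). Whether the lower start after CsA bears on the rise was not tested. Eln, for elastin, read 1350, 2020, and 1850, then 3010, 3690, and 3620 (1.00 ± 0.27, adjusted p = 0.017). Col1a2 read 1310, 1420, and 1290, then 1610, 2240, and 2160 (0.57 ± 0.18, adjusted p = 0.033). The count of this list varied with the fit. It fell to 2 under quantile normalization, to 2 without CsA Ang-II 2h replicate 2, and to 0 without CsA basal replicates 1 and 2. Under quantile normalization, Col1a2 had a log2 fold change of 0.03, and Eln did not pass (adjusted p = 0.21). Fibronectin Fn1, outside the list, rose by 0.97 ± 0.24 (adjusted p = 0.0096) but did not pass under quantile normalization either (adjusted p = 0.18).

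Of 18 genes for Cn, NFAT, and Rcan proteins and CsA-binding cyclophilins, 6 were higher and 2 lower (median 0.22), while 12.3% of all genes were higher and 7.84% lower. The catalytic subunit gene Ppp3ca read 76.4, 81.6, and 76.9 against 75.7, 76.9, and 88.9 (0.04 ± 0.10, adjusted p = 0.82), and the regulatory Ppp3r1 overlapped as well (0.18, adjusted p = 0.22). Ppp3cb had 0.22 (adjusted p = 0.096). Ppp3cc, the lowest of the catalytic genes in signal, read 7.12, 7.44, and 7.99, then 11.3, 11.8, and 11.7 (0.60 ± 0.12, adjusted p = 0.0036). Signals of different genes are not corrected for transcript length.

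Rcan1, an inhibitor of Cn one of whose transcripts is a classic NFAT target, was the member that moved most. It read 32.3, 36.5, and 32.4 in CsA basal and 101, 163, and 134 in CsA Ang-II 2h (1.93 ± 0.21, adjusted p = 2.9e-05), or 3.82-fold. The lowest treated library was thus above the highest basal one. In WT libraries Rcan1 went from 36.9, 30.7, and 45.2 to 304, 234, and 349 (2.96). The difference between the responses was -1.02 ± 0.30 and did not pass (adjusted p = 0.16), whereas the treated CsA and WT groups, compared directly, differed by -1.16 (adjusted p = 0.018), in a contrast that called 1.33% of genes. Nfatc2 (0.86) and Nfatc1 (0.70) rose, and Nfatc4 fell by 0.28.

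Of 30 signaling genes of vessel tone 4 were higher and 4 lower, against 12.3% and 7.84% of all genes, so that the count says little about the list. Ptgs2, the inducible cyclooxygenase, read 13.4, 11.8, and 10.7, then 60.6, 113, and 115 (2.90 ± 0.44, adjusted p = 0.0004). The vasodilator peptide gene Adm rose by 0.77. Agt, the precursor of angiotensin, fell by 1.92, from 3.53, 5.85, and 8.99 to 2.22, 0.735, and 0.823 (adjusted p = 0.021). The prostacyclin receptor Ptgir (-0.70) and the adrenergic receptor Adra1d (-0.69) were lower. Agtr1a, a gene for the Ang-II receptor, read 3.71, 2.67, and 6.76 against 3.24, 2.65, and 23.6 and did not pass (0.52 ± 0.56, adjusted p = 0.54). Its highest value is in CsA Ang-II 2h replicate 3, the library with the most Schwann cell and neuron signal. Gja1, the connexin of smooth muscle and endothelial gap junctions, read 89.3, 84.3, and 83.7, then 175, 257, and 230 (1.34 ± 0.23, adjusted p = 0.001).

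Cholesterol synthesis and uptake genes were higher in 9 of 15 cases and lower in 1 (median 0.72). Sqle, for squalene epoxidase, read 15, 12.7, and 18.8, then 28.6, 42.2, and 57.5 (1.40 ± 0.22, adjusted p = 0.00065). Srebf1, a regulator of fatty acid synthesis, fell by 0.77. Glucocorticoid-responsive genes were higher in 13 of 20 cases and lower in 0 (median 0.74). Zbtb16 (1.41), Sgk1 (1.36), Mt2 (1.21), and Fkbp5 (1.14) led, each with no overlap between the groups. Of these 20 genes, 14 were higher in CsA basal than in WT basal (median difference 0.93), against 13.9% of all genes. That comparison shares its CsA basal libraries with the 2 h contrast. At 2 h of Ang-II in WT, 18 of the 20 were higher (median 1.73). In TGF-beta, BMP, Smad, and Id genes 6 of 30 were higher and 1 lower, against 12.3% and 7.84% of all genes. A count this close to these shares says little about the list. Tgfb2, a TGF-beta ligand, read 53.8, 51.9, and 65.4, then 169, 336, and 205 (1.99 ± 0.28, adjusted p = 0.00024), and its receptor gene Tgfbr1 rose by 1.48.

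The other lists are read against the 12.3% higher and 7.84% lower of all genes, and with few members each most of their counts lay near these shares. Inflammatory cytokines and chemokines were higher in 2 of 17 cases and lower in 2, NF-kB targets and inhibitors in 3 and 1 of 17, and STAT3 and SOCS genes in 1 and 2 of 14. Il6, at 0.0879, 0.143, and 0.0578 against 0.128, 0.69, and 0.783, was close to the level of single reads (0.73 ± 0.48, adjusted p = 0.3). Socs3, the feedback inhibitor of STAT3, did not pass either (0.76, adjusted p = 0.12). Clock genes were higher in 4 of 19 cases and lower in 1, with the repressor Nfil3 at 2.30 ± 0.26. Redox and NRF2 genes were higher in 4 of 14 cases and lower in 0, unfolded protein and integrated stress response genes in 3 and 1 of 18, glucose uptake, glycolysis, and hypoxia genes in 4 and 1 of 18, calcium channels, stores, and pumps in 3 and 1 of 23, and RGS regulators in 1 and 0 of 11. By limma, 0 of 15 Notch genes and 0 of 19 oxidative phosphorylation genes passed, with 2 and 5 at an unadjusted p under 0.05, all lower, and the latter had a median of -0.42. DESeq2 and edgeR called 0 genes in either list.

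**Figure D3:**
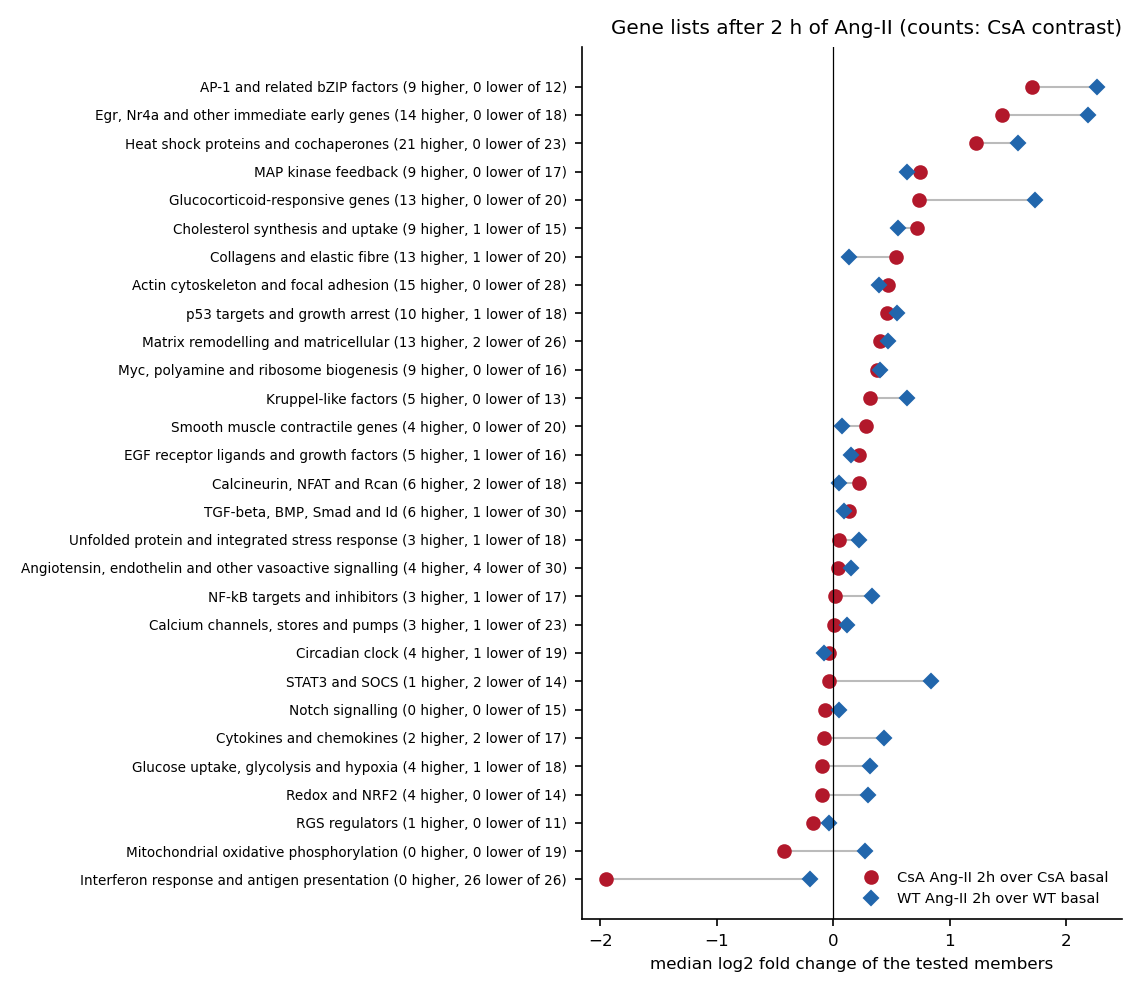
Median log2 fold change at 2 h of Ang-II (x axis) of each gene list after CsA (circles) and in WT (diamonds), with the number of members higher and lower after CsA in the row labels. Among these pathway lists, the heat shock list (21 of 23 higher) and the interferon list (26 of 26 lower) have the largest shares of members called in 1 direction.

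Interferon-induced genes were the pathway list with the most members lower. All 26 members of the interferon response and antigen presentation list were lower, with a median log2 fold change of -1.95. This list was drawn up with results of these data known, so its count is not independent evidence of direction. Igtp, an interferon-induced GTPase of vacuole defense, read 61.4, 182, and 174 in CsA basal and 6.41, 7.95, and 10.6 in CsA Ang-II 2h (-3.86 ± 0.56, adjusted p = 0.00031). Gbp2, a guanylate-binding protein, read 65.4, 243, and 152, then 20, 18.9, and 22.1 (-2.70 ± 0.39, adjusted p = 0.00032). Each treated library lay below each basal one in both genes, and basal replicate 1 was the lowest of the 3 basal libraries in both. Several of these GTPases have close paralogs, such as Tgtp1 with Tgtp2 and the Gbp cluster, between which reads may be split.

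Genes of antigen presentation moved in the same direction and by less. Tap1, the peptide transporter, read 28, 68.3, and 64.2, then 10.2, 7.68, and 10.3 (-2.35 ± 0.36, adjusted p = 0.00048). B2m, the light chain of class I molecules, read 393, 608, and 678, then 341, 313, and 305 (-0.77 ± 0.19, adjusted p = 0.0096). The immunoproteasome gene Psmb8 (-1.90), the class II genes Cd74 (-1.18) and H2-Ab1 (-1.19), and the transcription factor Irf1 (-1.59) were lower, too. The chemokine Cxcl10, itself interferon-induced, fell by 1.94 at a signal of 1.04, 6.91, and 2.21 against 0.0766, 0.2, and 0.863.

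The treated levels lay near those of WT basal, a closeness that was not tested. In WT basal, Igtp read 11.8, 7.18, and 6.83. In CsA basal against WT basal, 25 of the 26 members were higher, with a median difference of 2.05 on the log2 scale, while 13.9% of all genes were higher. That comparison shares its CsA basal libraries with the 2 h contrast, and so the 2 are not independent. In the WT contrast, which shares no library, 0 of 26 were higher and 1 lower, with a median of -0.20. The direct test of the difference between the CsA and WT responses called 0 of the 26, against 0.146% of all genes. At so low a share, 0 calls among 26 genes say little about whether the responses were alike. Macrophage markers, all 9 of them higher in CsA basal than in WT basal, fell in 6 of 9 cases at 2 h, among them C1qa by 0.96, and their part in the interferon result was not tested. Without CsA basal replicates 1 and 2, 18 of 26 interferon genes were lower, with a median of -1.99.

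An interferon-stimulated response element, GAAANNGAAA on either strand, was in 3.14% of the 10656 promoters, in 11 of 22 matched promoters of the interferon list (50%), in 9 of 34 of the 50 largest falls (26.5%), and in 1 of 35 of the 50 largest rises (2.86%). A GAS element, TTCNNNGAA, was in 6.89%, 22.7%, 20.6%, and 8.57% of these sets, and a TATA box, TATAAA, in 7.41%, 36.4%, 20.6%, and 11.4%. These 3 motifs were added after the falls had been seen, and matches of different motifs can overlap. The interferon list and the largest falls share genes such as Igtp, so that their shares are not independent. Stretches of members that fell are given from RefSeq on GRCm38.p6, with the matches in capitals. They lie at chr11:58199497-58199556 (Igtp, plus strand), chr3:142530258-142530317 (Gbp7, plus strand), chr4:156200850-156200921 (Isg15, minus strand), chr19:34640760-34640838 (Ifit1, plus strand), and chr2:122147523-122147582 (B2m, plus strand).
Igtp: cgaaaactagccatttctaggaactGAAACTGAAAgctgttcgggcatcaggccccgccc
Gbp7: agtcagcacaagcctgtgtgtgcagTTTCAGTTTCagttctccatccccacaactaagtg
Isg15: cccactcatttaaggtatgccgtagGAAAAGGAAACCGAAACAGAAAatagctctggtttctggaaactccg
Ifit1: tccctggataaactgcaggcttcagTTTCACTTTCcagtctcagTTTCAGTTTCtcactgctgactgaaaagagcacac
B2m: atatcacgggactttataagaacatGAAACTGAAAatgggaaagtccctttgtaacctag
The log2 fold changes of these genes were -3.86 for Igtp, -2.38 for Gbp7, -2.04 for Isg15, -2.04 for Ifit1, and -0.77 for B2m, and Isg15 holds 3 overlapping matches.

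Marker genes of heart muscle and mesothelium made up much of the other large falls. Of the 12 largest falls by the naming rule, 6 were cardiac muscle genes, 4 interferon-induced GTPases, and 2 mesothelial genes. Myh6, the cardiac alpha myosin heavy chain, read 568, 947, and 60.5 in CsA basal and 13.2, 9.47, and 42.4 in CsA Ang-II 2h (-4.15 ± 1.25, adjusted p = 0.029). Mybpc3, its binding protein, read 75.7, 124, and 8.45, then 0.69, 0.334, and 2.11 (-5.00 ± 1.37, adjusted p = 0.018). The groups did not overlap, but basal replicates 1 and 2 were far above replicate 3. Without these 2 libraries the log2 fold changes were -1.76 for Myh6 (adjusted p = 0.54) and -2.70 for Mybpc3 (adjusted p = 0.39). Ttn (-4.33) and Myl3 (-5.27) had the same pattern, and 0 of the 9 tested muscle markers passed without these libraries, against 5 of 9 with them. The fall of Pln (-2.31), a regulator of the calcium pump in heart and smooth muscle, was lost as well (adjusted p = 0.73).

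Mesothelial genes were lower in every treated library than in any untreated one. Upk3b read 14.5, 34.6, and 79.4, then 0.536, 3.27, and 0.903 (-4.30 ± 0.64, adjusted p = 0.00038). Msln, for mesothelin, read 15.6, 18.1, and 38.2, then 0.843, 2.78, and 0.823 (-3.65 ± 0.78, adjusted p = 0.0047). Muc16 (-3.93), Krt19 (-3.33), and the transcription factor Wt1 (-2.49) followed. All 6 markers were lower, and 5 of 6 without CsA basal replicates 1 and 2. In CsA Ang-II 24h, Upk3b was again at 27.8, 18.8, and 16.6, higher than at 2 h by 3.58 (adjusted p = 0.0016). Complement C3 fell by 1.57, from 753, 703, and 1540 to 382, 346, and 237. Whether the amount of these tissues in each pool set any of the other differences was not tested.

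Few other cell markers passed. By limma, endothelial markers passed in 0 of 9 cases (median -0.37, 2 at an unadjusted p under 0.05), of which DESeq2 called 1 and edgeR 0. Neutrophil (6), T and B cell (3), red blood cell (5), and Schwann cell and neuron markers (8) gave 0 calls by any of the 3 tools and 0 at an unadjusted p under 0.05. Of 9 fibroblast and adventitia markers 1 was lower, of 15 adipocyte markers 1 was higher, and of 8 smooth muscle markers 1 was higher. Over all genes 12.3% were higher and 7.84% lower, so that counts from so few markers say little about these cell types.

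**Figure D4:**
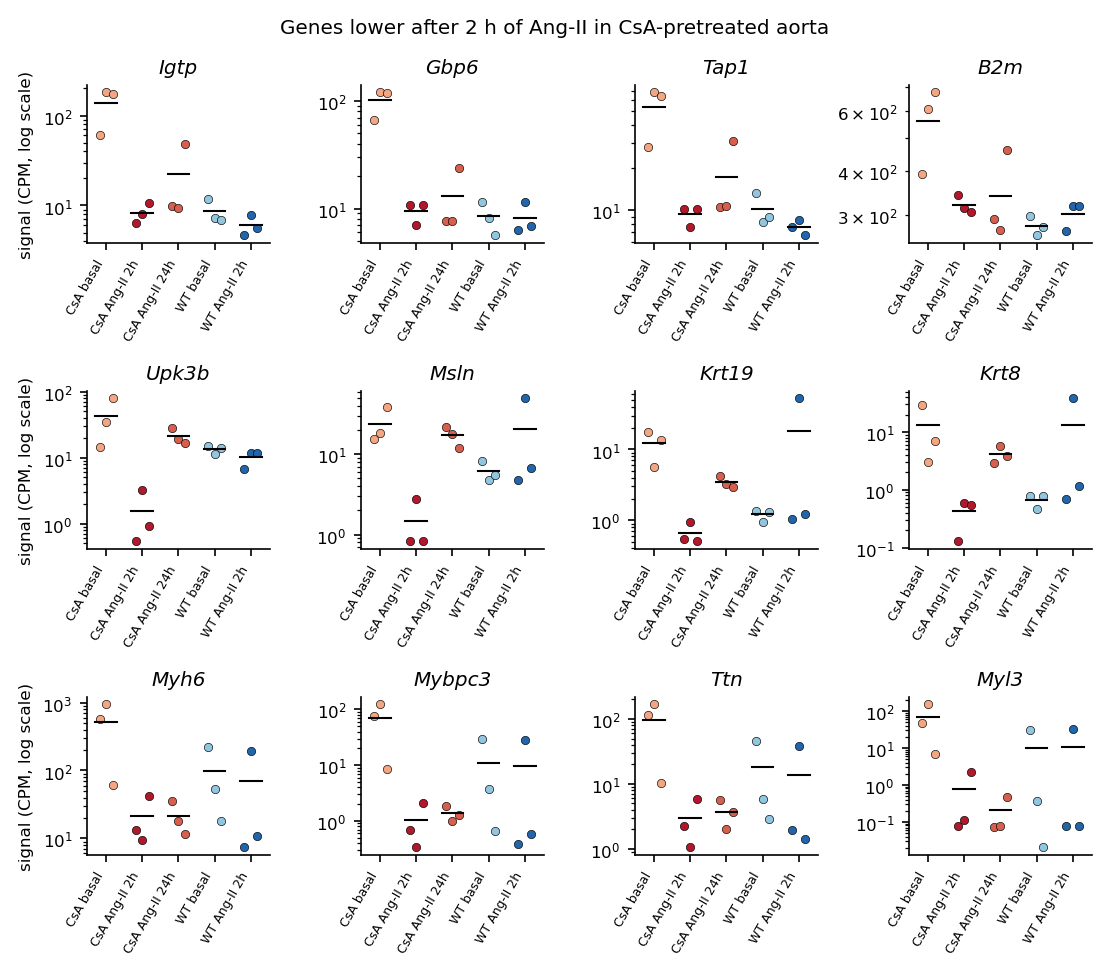
Signal (log scale, y axis) of 12 genes that fell, with 1 point per library and a bar at the group mean for the same 5 groups. Interferon-induced (Igtp, Gbp6, Tap1, B2m) and mesothelial genes (Upk3b, Msln, Krt19, Krt8) are lower in each CsA Ang-II 2h library than in each CsA basal library, and the cardiac genes (Myh6, Mybpc3, Ttn, Myl3) are highest in CsA basal replicates 1 and 2.

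The response after CsA was set beside that of WT aortas without CsA, which uses other libraries. Ang-II at 2 h gave 1562 higher (11.4%) and 1375 lower DEGs (10%) in WT. In both contrasts 1030 genes were higher, which is 60.9% of the CsA set and 65.9% of the WT set, and 412 were lower, 38.3% and 30.0%. Past a fold change of 2, WT had 376 higher (2.74%) and 108 lower DEGs (0.786%), and 202 genes were higher in both (76.8% and 53.7%) and 15 lower in both (5.4% and 13.9%). In WT the median signal of the 263 genes higher after CsA went from 37.3 to 117, and that of the 278 lower ones from 3.34 to 3.02. Among the lists that rose in both, the median log2 fold change was 1.71 after CsA and 2.27 in WT for AP-1 factors. It was 1.45 and 2.19 for immediate early genes, and 1.23 and 1.59 for heat shock genes. Other lists were farther apart or differed in sign. Glucocorticoid-responsive genes had 0.74 and 1.73, STAT3 and SOCS genes -0.04 and 0.84, and oxidative phosphorylation genes -0.42 and 0.27. The change was larger after CsA for collagens and elastic fiber genes (0.54 and 0.14) and for interferon genes (-1.95 and -0.20). Differences between list medians were not tested. Fos reached 426, 675, and 567 in WT Ang-II 2h, above all 3 treated CsA libraries (-2.71 between the treated groups, adjusted p = 0.026), but the difference between the responses of -2.02 ± 0.74 did not pass (adjusted p = 0.26). Egr1 reached 489, 606, and 610 in WT (-2.01 between the treated groups, adjusted p = 0.0044), and its difference between the responses was -1.37 ± 0.40 (adjusted p = 0.17). Hspa1b reached 8930, 6260, and 8700 in WT, against which CsA differed by -0.99 (adjusted p = 0.26), and its responses differed by 0.34 ± 0.64 (adjusted p = 0.85).

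A test of the difference between both responses called 20 genes (0.146%), with 3 more positive (0.0218%) and 17 more negative after CsA (0.124%), while 1898 had an unadjusted p under 0.05. Errfi1 rose in both but by less after CsA, since WT went from 51.2, 61.3, and 66.6 to 1170, 943, and 1270 (difference -1.79 ± 0.27, adjusted p = 0.04). Nr4a2 rose by 0.50 after CsA and by 1.87 in WT (difference -1.37 ± 0.22, adjusted p = 0.04). Cdkn1a, the p21 inhibitor of the cell cycle, rose by 0.76 and 2.23, and Klf4 by 0.68 and 1.64. The treated CsA and WT libraries of Cdkn1a overlapped, at 135, 120, and 89.8 against 141, 123, and 162, and the untreated ones did not, at 78.1, 48.6, and 79.1 against 27.1, 29.8, and 32.7. Rhbdd2 had the lowest adjusted p (difference -1.19 ± 0.16, adjusted p = 0.016). Of the falling genes, Gbp6 (-3.30), Zbp1 (-3.08), and the class II transactivator Ciita (-2.64) were called, none of them a member of the interferon list. All 20 calls were lost when WT basal replicate 2 was left out, with an adjusted p of 0.064 for Rhbdd2 and of 0.15 to 0.17 for the other genes, and 0 genes were called without WT Ang-II 2h replicate 1 or 3 or CsA Ang-II 2h replicate 3, while 1481 to 2172 genes had an unadjusted p under 0.05 in these limma fits. DESeq2 called 323 genes and edgeR 13 on all libraries. With the replicate number as a block, Rhbdd2 was the only gene called (adjusted p = 0.018), and the others lay between 0.052 and 0.097.

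**Figure D5:**
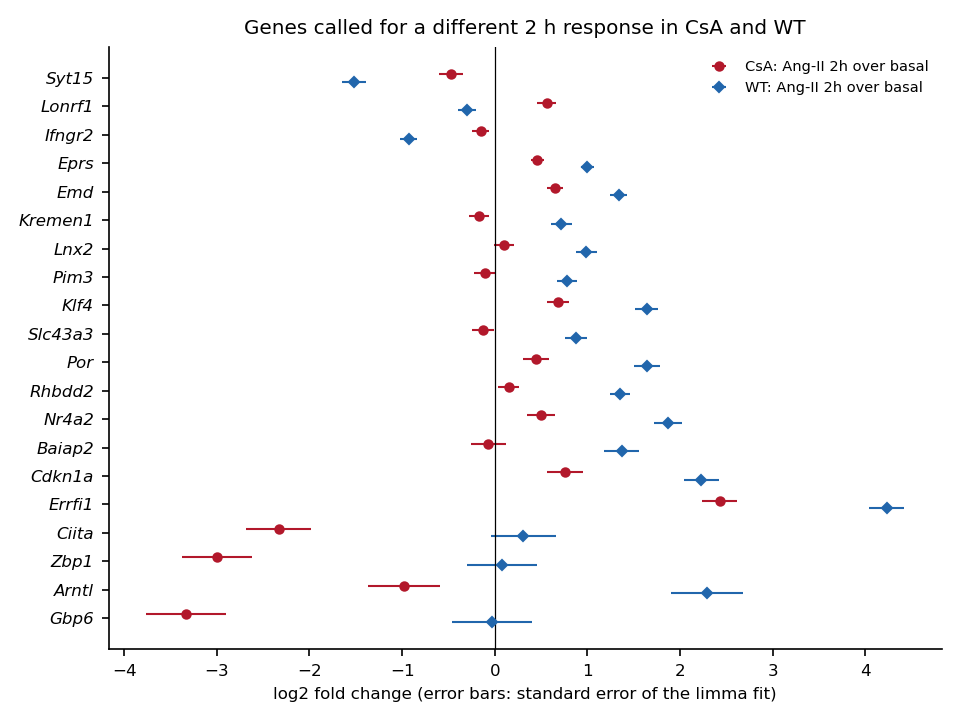
Log2 fold change at 2 h of Ang-II (x axis) after CsA (circles) and in WT (diamonds) with SE bars, 1 gene per line. Shown are the 20 genes called in the test of the difference between the responses. Errfi1 and Nr4a2 are right of 0 in both, and Gbp6 and Zbp1 are left of 0 after CsA.

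In CsA Ang-II 24h the higher genes were lower again. Their median signal was 32.6, 86.4, and 41.0 at 0, 2, and 24 h, and that of the 278 lower DEGs was 10.1, 2.37, and 4.67. Both sets were chosen on their basal and 2 h values, and so part of this return can follow from the choice. In the direct contrast of 24 h with 2 h, 1021 genes were higher (7.43%) and 1452 lower (10.6%), and it shares its 2 h libraries with the contrast described here. Hspa1b read 158, 236, and 87.7 at 24 h (-4.74 from 2 h, adjusted p = 2.1e-05), and Rcan1 was at 42.8, 33, and 38.5 (-1.77, adjusted p = 9.8e-05). Lox was at 362, 387, and 293 and did not pass between 24 h and 2 h (-0.01, adjusted p = 0.98), and neither did Thbs1 (0.04, adjusted p = 0.95). Igtp read 9.79 and 9.37 in 2 libraries and 47.8 in replicate 3.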

How the data were processed

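RNA was measured from pools of 3 aortas, cleared of blood by saline perfusion, in 18 libraries, 3 per group. Per the methods, cDNA was primed with oligo-dT and sequenced on an Illumina Genome Analyzer IIx, and the reads were assigned to Ensembl transcripts with Bowtie 0.12.7 and RSEM 1.16. The submitters' processing notes name GRCm38. The values deposited by the authors are a normalized signal per gene. Every value gave whole reads within a tolerance of 0.01, and the signal equals the TMM-scaled CPM of reads plus 0.5. Reads of the 6 libraries compared ranged from 21 M to 26.65 M.

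Of 15399 genes, 13741 were protein-coding in GENCODE mouse release 21, and 13738 had a signal of at least 1 in at least 2 libraries. The median SE of a log2 fold change at this depth and replication was 0.153. With limma 3.58.1 in R 4.3.3, log2(signal + 0.5) was fitted with 1 mean per group over all 18 libraries, with an intensity trend, and p-values were adjusted by Benjamini-Hochberg. No test is named in the study's methods for its own calls. Same-numbered CsA basal and CsA Ang-II 2h libraries deviated together (correlations of 0.169, 0.377, and 0.362). The main fit and its p-values do not use this pairing. The numbers, which come from the labels, were used as a block in 1 of the alternative fits. Replicates of a group differed by more than sampling noise.

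Named genes were the 12 largest rises and falls without overlap between the groups, the most abundant DEGs, the genes with the smallest p of the CsA and WT difference, up to 4 members per list, Cn subunits, Rcan1, Agtr1a, Ier3, and Gja1. A list member outside this rule is named as an example after its values were seen. The members and lists were chosen with earlier results of these data known, and some genes within the naming rule are not reported here. Alternatives were other scalings, pseudocounts, filters, and fits, DESeq2 1.42.0 and edgeR 4.0.16 on the recovered reads, and leaving out each library. The fits were tested on simulated data.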

Additional observations from a re-analysis of the deposited data

Results flagged for a closer look

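The log2 response to 2 h of Ang-II after CsA was called different from that in WT, by a test of the difference itself, for the 20 genes below. These calls were not stable. Without WT basal replicate 2, 0 genes were called, and with the replicate number as a block 1 was. Values are the response after CsA minus that in WT. In 17 genes the value was negative. It was -3.30 for Gbp6, -3.08 for Zbp1, and -2.64 for Ciita, which serve defense or antigen presentation, and -3.26 for the clock factor Arntl. It was -1.79 for Errfi1, -1.47 for Cdkn1a, -1.43 for Baiap2, -1.37 for Nr4a2, -1.19 for Por, and -1.19 for Rhbdd2. Smaller negative values were found for Slc43a3 (-1.01), Klf4 (-0.96), Lnx2 (-0.89), Pim3 (-0.89), Kremen1 (-0.88), Emd (-0.68), and Eprs (-0.54). The value was positive for Syt15 (1.06), Lonrf1 (0.86), and Ifngr2 (0.78). Genes beyond the 6 smallest p in each direction are named here after their values were seen.

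Genes not annotated as protein-coding, which the main comparison leaves out, also carried signal that differed between CsA Ang-II 2h and CsA basal. There were 1658 such genes, 15 of them without annotation, and they were tested in a fit of all 15399 listed genes. In that fit 105 were higher and 60 lower, 50 and 25 of them past a fold change of 2. These are smaller shares than the 12.3% higher and 7.84% lower of the protein-coding genes in the main fit. Mirg, a noncoding RNA that hosts microRNAs, read 3.18, 3.77, and 4.83 without Ang-II and 13.3, 28.7, and 17.4 with it (2.14). AW112010, a noncoding RNA, fell by 1.60, from 10.3, 17.5, and 16.1 to 3.96, 4.21, and 5.04. Gm12250 fell by 3.72, from 5.08, 22.4, and 17.3 to 0.587, 0.156, and 0.903, and as a pseudogene it may share reads with its parent family. Groups of 3 libraries were not tested for single libraries that stand apart.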

How the results depend on the processing

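The counts of higher and lower DEGs after CsA (1690 and 1077) stayed within 1.5 times under other scalings, pseudocounts, filters, and count tests, with 2077 and 1216 by DESeq2 and 1698 and 1004 by edgeR. The exceptions follow, and no direction reversed. Lower DEGs numbered 596 when only the groups of the comparison were fitted. Those past a fold change of 2 numbered 181 with a pseudocount of 2 and 148 with a mean signal of at least 5. Under quantile normalization 2 collagen and elastic fiber genes were higher. Genes whose response differed from WT, 20 in the report, numbered 1 under quantile normalization, 70 with only the groups compared, 323 by DESeq2, and 13 by edgeR. With only the groups compared, 24 h against 2 h gave 302 higher and 534 lower. With CsA basal replicates 1 and 2 left out, chosen after seeing the data and with the lone library assumed to vary like the other groups, the counts were 653 higher, 251 lower, 145 lower past a fold change of 2, 0 collagen genes, and 3 actin genes.

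Leaving out each library in turn gave 920 to 1763 higher and 523 to 1268 lower DEGs, of which 210 to 322 and 171 to 344 lay past a fold change of 2. The counts were 920 and 523 without CsA Ang-II 2h replicate 2 and 1101 and 654 without CsA basal replicate 3, and 685 were lower without CsA basal replicate 2. Genes whose response differed from WT ranged from 0 to 47, and 24 h against 2 h from 689 to 848 higher and from 916 to 1416 lower. List counts ranged from 9 to 9 (AP-1), 10 to 14 (immediate early), 19 to 21 (heat shock), 12 to 15 (actin), 2 to 15 (collagens), and 19 to 26 (interferon, lower).

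With the replicate number as a block, 1560 genes were higher and 1000 lower, and 1 gene differed in response from WT. Atp2b4 (adjusted p = 0.054), Ppp1r12a (0.056), Rgs5 (0.052), and Tmsb4x (0.053) no longer passed, and no other of 184 genes called at 2 h, which hold those printed in the report and those of the naming rule, was lost. Of these, 124 were called in every alternative but the one chosen after seeing the data. The cause of these shifts was not tested, except that fewer libraries or genes entered the fits that leave some out.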

Other observations

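Some values belong to no comparison above. The 15 adipocyte markers summed to a signal of 6630, 5440, and 8900 in CsA basal, 8420, 4580, and 3480 in CsA Ang-II 2h, and 2150, 2370, and 1640 in WT basal. Among WT libraries, Ang-II 2h replicate 2 had the highest mesothelium sum (127, against 15.3 and 24.7 in the other Ang-II 2h libraries) and muscle sum (561, against 59.7 and 56.9), and WT basal replicate 1 had a muscle sum of 521, against 135 and 77.3.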
